A study of Bos taurus and Bubalus bubalis with 9 samples.

Results

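The circular RNAs of Nanyang cattle were compared between skeletal muscle and fat, summed by the gene they come from. The deposited cattle table listed 18535 back-splice junctions, whose reads fell on 4757 gene symbols. A host gene was kept when at least 5 of its junction reads were counted in at least 3 of the 6 cattle libraries, and 934 of the 4757 hosts met this. The 6 libraries are 3 of longissimus dorsi muscle and 3 of subcutaneous fat from the back, out of 9 in the series, and the labels class these cattle as high in intramuscular fat. The labels name 3 Nanyang cattle, weaned at 3 months, castrated at 6 months, fattened from 18 months and slaughtered at 30 months of age. Both tissues therefore came from the same few animals, but no label says which muscle library and which fat library share an animal, so the groups were compared unpaired. Total RNA had been extracted with TRIzol and made into libraries with a TruSeq RNA kit.

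A circular RNA (circRNA) forms when the spliceosome joins the end of an exon back to the start of the same or an upstream exon, so that the RNA has no free ends. Only reads that cross this back-splice junction mark it, and the gene whose exons are circularised is called its host. The level of a circRNA can follow the transcription of its host or the balance between linear splicing and back-splicing, and one host can give several circles. Because only the reads over a junction were counted, the value of a junction does not grow with the length of a gene as ordinary read counts do. A host value is a sum over its junctions, and whether it follows the length of the gene was not tested.

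The 3 muscle libraries held between 15440 and 27141 junction reads and the 3 fat libraries between 12042 and 21053, out of library totals of 35712276 to 42265538 reads. Values are given as RPM, which are reads scaled by the library total and where 1 junction read was worth 0.0237 to 0.028 RPM, or as the reads recovered from them. Host values were rarely large, with a median of 50 reads over all 6 libraries among the 934 hosts tested. The tested hosts held 77.5 to 78.9% of the junction reads with a symbol in muscle and 71.7 to 72.9% in fat. On the scale log2(RPM + 0.1), Pearson's r across hosts was 0.746 to 0.759 between muscle libraries, 0.651 to 0.71 between fat libraries and 0.237 to 0.405 between tissues, where hosts are not independent replicates.

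Muscle and fat were separated by a limited set of hosts. With limma on log2(RPM + 0.1) and Benjamini-Hochberg adjustment over all 934 hosts, 98 hosts (10.5%) were higher in muscle and 35 hosts (3.75%) were higher in fat, at an adjusted p below 0.05. The differences ran from 1.21 to 7.48 on the log2 scale among the former and from 1.23 to 2.58 among the latter, so the farthest departures were on the muscle side. Without regard to the test, all 3 muscle libraries lay above all 3 fat libraries in 147 hosts (15.7%), and the reverse held in 88 hosts (9.42%). The hosts higher in muscle took 28.3 to 31.8% of the reads with a symbol in the muscle libraries against 3.13 to 4.3% of those in the fat libraries. The hosts higher in fat took 4.76 to 5.83% of the fat reads with a symbol and 0.67 to 0.929% of the muscle reads with a symbol.

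**Figure D1:**
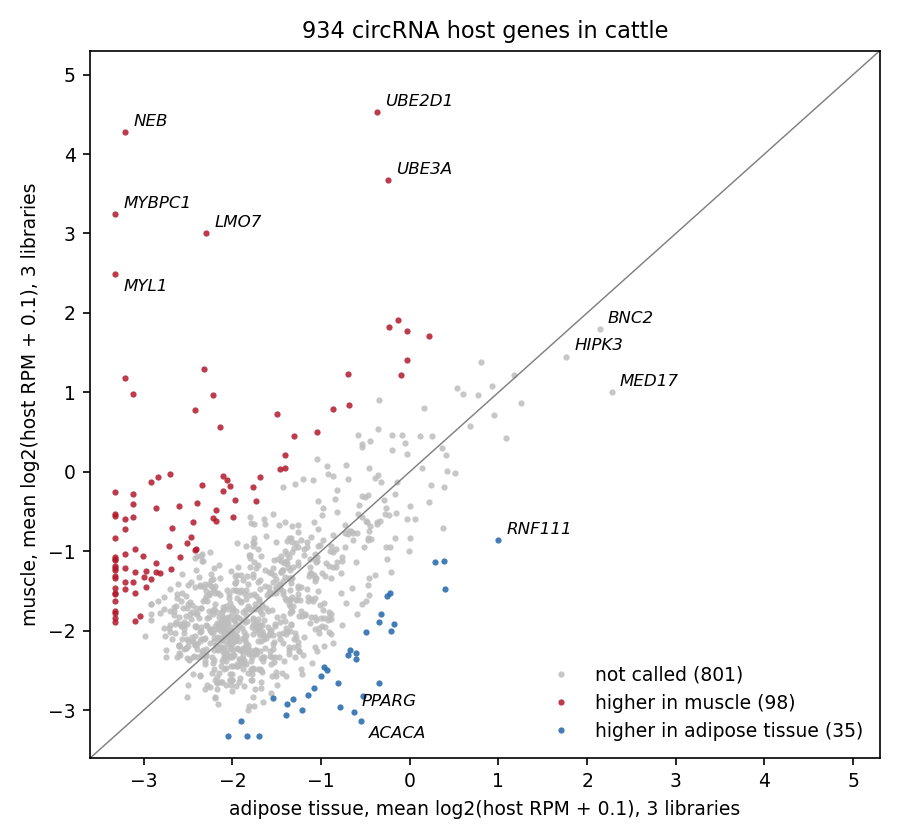
Each point is 1 of the 934 host genes, placed by its mean log2(RPM + 0.1) over the 3 fat libraries (horizontal) and over the 3 muscle libraries (vertical), with the diagonal marking equal values and colours marking the limma call. The 98 hosts higher in muscle reach far above the diagonal on the left, NEB, MYBPC1 and MYL1 farthest, while the 35 hosts higher in fat lie closer to it.

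Part of these counts follows from the read filter. It was passed through muscle libraries alone by 63 hosts, of which 51 were called higher in muscle, and through fat libraries alone by 27 hosts, of which 16 were called higher in fat. Such hosts entered only by being high in that tissue, so their number supports nothing and their single tests are a description. Among the 844 hosts that had at least 5 reads in libraries of both tissues, 47 (5.57%) were higher in muscle and 19 (2.25%) were higher in fat. In this model the error of each host came almost wholly from the spread pooled over all hosts (prior degrees of freedom 944), so the smallest p-values rest on the size of the difference and not on the 3 libraries of that host alone. The log2 differences of hosts with few or no reads in one tissue also depend on the 0.1 RPM added, and that of ACACA ran from -0.65 to -5.18 over the alternatives. The count for fat depended on single libraries, and was 15 without muscle 1, 19 without muscle 3 and 21 without adipose 2. It also depended on the scaling, since 94 hosts higher in muscle stood against 91 higher in fat when each library was scaled to its own circRNA reads, and 106 against 62 when each was centred on its median host. The median log2 difference over all hosts was 0.05 as deposited, -0.21 under the first of these scalings and -0.04 under the second. In whole tissue, fewer cells of one type and less RNA per cell cannot be told apart. The mRNA levels of the hosts were not used here, so whether a circRNA moved with its host mRNA was not tested.

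NEB encodes nebulin, the giant protein that runs along the thin filament of the sarcomere. Its circRNA reads (ENSBTAG00000006907) numbered 607, 968 and 691 in muscle 1 to 3 and 0, 1 and 0 in adipose 1 to 3. All 3 muscle libraries were thus far above the fat libraries, which held a single read between them. The mean was 19.4 ± 3.42 RPM (SD, n = 3) in muscle, and limma put the log2 difference at 7.48 ± 0.48 (SE), with an adjusted p of 1.83e-45. NEB had passed the read filter through muscle libraries alone, so this test is a description. With 1 read in fat, the ratio of muscle to fat was 2209, with an exact 95% counting interval from 396.1 to 87300. Intervals of this kind cover counting error only, since reads are not independent molecules. NEB gave 68 junctions, but one of them, chr2:44660522-44671994 of UMD3.1, which the table classes as reaching from exon into intron, held 93% of its reads.

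UBE2D1, an E2 enzyme that carries ubiquitin to its ligases, had the highest mean RPM of all hosts in muscle. Its reads (ENSBTAG00000020796) numbered 502, 1387 and 994 in muscle and 13, 74 and 15 in fat. The tissues did not overlap, although muscle 1 lay well below the other muscle libraries and adipose 2 well above the other fat libraries. The means were 24.6 ± 10.2 RPM in muscle and 0.909 ± 0.935 RPM in fat (SD, n = 3), a log2 difference of 4.90 ± 0.56 (limma, adjusted p = 1.68e-15). A single junction, the exonic chr26:669451-673248, held 99.9% of its reads.

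UBE3A encodes a ubiquitin ligase that takes ubiquitin from such E2 enzymes. Its reads (ENSBTAG00000002487) numbered 477, 385 and 629 in muscle and 22, 48 and 20 in fat. The lowest muscle library was well above the highest fat library. The means were 13.1 ± 4.27 RPM and 0.801 ± 0.426 RPM (SD, n = 3), a log2 difference of 3.92 ± 0.54 (limma, adjusted p = 6.7e-11). Here too a single junction, chr21:2404179-2410197 on the minus strand, held 98.2% of the reads.

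RNF111 encodes Arkadia, a ubiquitin ligase of TGF-beta signalling, and was higher in fat. Its reads (ENSBTAG00000014181) numbered 17, 18 and 17 in muscle and 67, 96 and 56 in fat. Muscle values were close together and every fat value exceeded them. The means were 0.451 ± 0.0251 RPM in muscle and 1.95 ± 0.58 RPM in fat (SD, n = 3), a log2 difference of -1.86 ± 0.47 (limma, adjusted p = 0.00147). The short exonic circle chr10:51344767-51345665, which spans 899 bp, held 91.9% of them.

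BNC2, a zinc finger protein of fibroblasts and other mesenchymal cells, had the highest mean RPM of all hosts in fat. Its reads (ENSBTAG00000003669) numbered 132, 108 and 153 in muscle and 99, 383 and 111 in fat. The tissues overlapped, and the high mean in fat came from adipose 2. The log2 difference was -0.35 ± 0.55 (limma, adjusted p = 0.787), and 0.27 without adipose 2. All reads of BNC2 came from one exonic junction of 1970 bp, chr8:27974923-27976892.

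**Figure D2:**
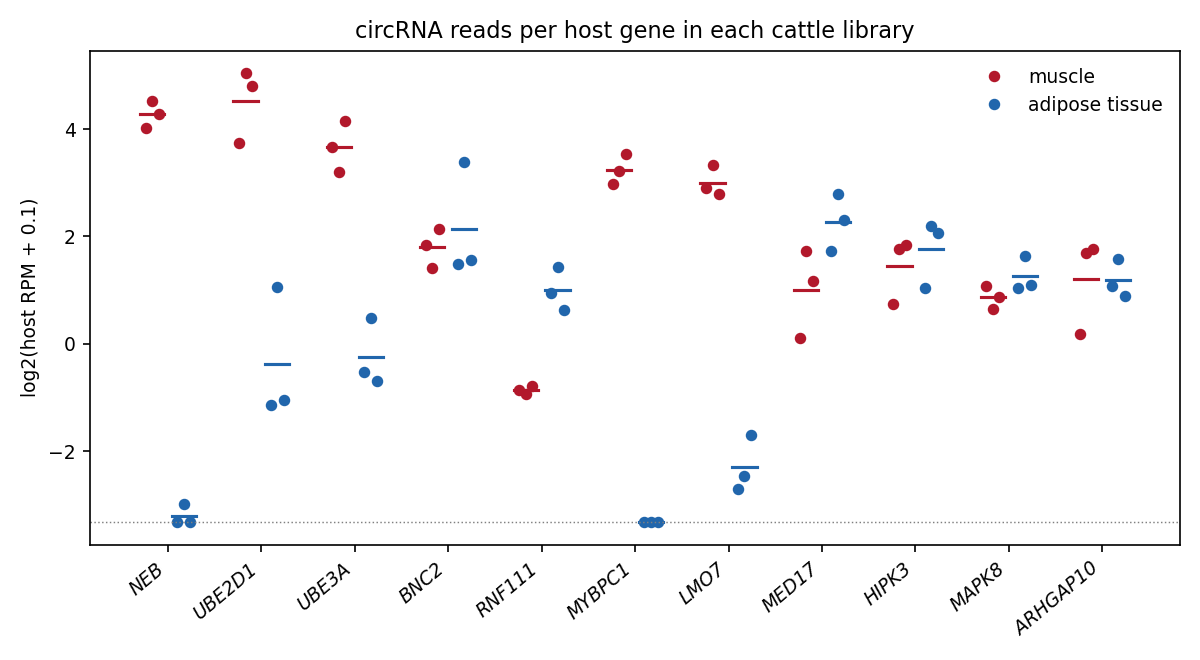
Points are single libraries, given as log2(RPM + 0.1) of the host gene, short lines are the means of the 3 muscle or 3 fat libraries, and the dotted line is the value of a host with no read. NEB, UBE2D1, UBE3A, MYBPC1 and LMO7 lie apart between tissues, RNF111 lies apart the other way, and BNC2, HIPK3, MAPK8 and ARHGAP10 overlap.

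Within a list of sarcomere and Z-disc proteins, which did not hold MYL1, NEB, MYBPC1 and MYPN were the hosts with the most reads. Of 56 genes listed, 33 had any circRNA read and 7 were tested. Of these 7, 6 rose in muscle and none in fat, where 10.5% and 3.75% of all hosts did, and the median log2 difference was 2.79 against 0.05 over all hosts tested. All 6 had passed the read filter through muscle libraries alone, so this count and median were set by the filter and are a description. Summed over the list, the level was 27.4 to 37.7 RPM in muscle and 0.0773 to 0.35 RPM in fat. MYBPC1, the slow form of myosin-binding protein C, had 293, 389 and 412 reads in muscle and no read in any fat library. Counting a floor of 3 reads over the fat libraries, it was at least 355.5-fold higher in muscle (limma log2 difference 6.57 ± 0.47, adjusted p = 6.83e-38). Bounds from this floor take the muscle reads as exact, and the exact 95% counting interval of the ratio, here from 288.7 upward, reaches lower for each host with no read in one tissue. Its reads were spread over 47 junctions, of which the highest, chr5:65790613-65793791, held 31.5%.

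Myopalladin (MYPN), which anchors thin filaments at the Z-disc, had 55, 95 and 72 reads in muscle and 0, 2 and 0 in fat. Its log2 difference was 4.10 ± 0.48 (limma, adjusted p = 4.32e-15), and the ratio of summed reads was 108.2, with a counting interval from 29.6 to 899.2. The calsarcin MYOZ2, another Z-disc protein, had 10, 29 and 38 reads in muscle and none in fat, and was at least 25-fold higher in muscle. MYOM1, the myomesin of the M-band, had 6, 30 and 14 reads in muscle and none in fat, and PALLD had 6, 29 and 20 against 1, 1 and 0. The remaining host, the tropomyosin TPM1, whose symbol covers a pair of gene identifiers in the table, was not called, with 13, 7 and 26 reads in muscle and 2, 7 and 3 in fat (log2 difference 1.21, limma, adjusted p = 0.0967), although edgeR with TMM factors called it (0.048).

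MYL1, LMO7 and MLIP, in none of the lists, were among the 10 hosts with the largest differences toward muscle. MYL1, an essential light chain of fast skeletal myosin, had 184, 267 and 195 reads in muscle and none in fat, at least 209.9-fold higher in muscle (limma log2 difference 5.81 ± 0.47, adjusted p = 1.35e-30). LMO7, a LIM domain protein of cell junctions and the nucleus, had 278, 420 and 242 reads in muscle and 2, 3 and 8 in fat (5.29 ± 0.48, adjusted p = 1.57e-24). Its leading junction, chr12:51190589-51221902, had 256, 341 and 179 reads in muscle and none in fat, while the next, chr12:51201755-51209400, had 4, 46 and 32 in muscle and 1, 3 and 4 in fat. MLIP, a protein that binds lamins in muscle, had 35, 132 and 121 reads in muscle and 0, 1 and 0 in fat (4.38 ± 0.48, adjusted p = 3.97e-17). In each of these hosts the lowest muscle library exceeded the highest fat library. MYL1 and MLIP had passed the read filter through muscle libraries alone, so their tests are a description.

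Of 41 genes of excitation-contraction coupling and the muscle cell membrane, 28 had reads and 11 were tested. Of the 11, 5 rose in muscle and none in fat, against 10.5% and 3.75% of all hosts. The median log2 difference was 1.09, against 0.05 over all hosts, and scaling to circRNA reads added 1 call in fat. Of these 5, CLCN1, ATP2A2, RYR1 and ANK3 had passed the filter through muscle libraries alone, so the count is a description. The chloride channel CLCN1 (18, 21 and 15 reads in muscle), the calcium pump ATP2A2 (13, 12 and 17) and the calcium release channel RYR1 (6, 15 and 9) had no read in fat, which made them at least 17.6-fold, 13.7-fold and 9.75-fold higher in muscle. The membrane scaffold ANK3 had 20, 38 and 28 reads in muscle and 0, 0 and 2 in fat, with a log2 difference of 2.84 ± 0.51 (limma, adjusted p = 1.57e-06). Dysferlin (DYSF), which repairs the membrane, had 16, 12 and 22 against 0, 5 and 2, and its adjusted p of 0.00574 rose to 0.0921 without muscle 3 and to 0.0735 without adipose 1. The list also held 2 hosts with more reads than these that overlapped between tissues, the dystrophin relative UTRN (20, 32 and 22 against 28, 38 and 19) and the phosphorylase kinase subunit PHKB (15, 20 and 14 against 15, 41 and 10). The sodium-calcium exchanger SLC8A1, named after its values were seen, lay higher in every fat library (5, 2 and 6 against 9, 19 and 10) and was not called (log2 difference -1.01, limma, adjusted p = 0.205).

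Metabolic enzymes named by the size of their difference were PFKFB1, PRKAA2 and ACACA. PFKFB1, which makes and removes the sugar bisphosphate that drives glycolysis, had 51, 101 and 144 reads in muscle and 5, 9 and 0 in fat, with a log2 difference of 3.62 ± 0.47 (limma, adjusted p = 3.55e-12). PRKAA2, a catalytic subunit of AMP-activated protein kinase, had 63, 63 and 61 reads in muscle and 1, 2 and 9 in fat (3.20 ± 0.47, adjusted p = 1.55e-09). Its reads were divided almost evenly between 2 junctions that share the end at position 90067869 of chromosome 3, with 50.8 and 46.2% of them. ACACA, the acetyl-CoA carboxylase of fatty acid synthesis, had 0, 2 and 0 reads in muscle and 17, 29 and 21 in fat. On this scale it had the largest log2 difference of the 35 hosts higher in fat, at -2.58 ± 0.51 (limma, adjusted p = 2.05e-05), and its ratio of fat to muscle was 34.4, with a counting interval from 9.15 to 289.6. Its reads were spread over 23 junctions, none above 14.5%. Its isoform ACACB, which regulates the oxidation of fatty acids, had 8, 14 and 18 reads in muscle and 0, 1 and 0 in fat (2.00 ± 0.48, adjusted p = 0.00074). ACACB was singled out after its values were seen. It had passed the read filter through muscle libraries alone, and ACACA through fat libraries alone, so both tests are a description.

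The ubiquitin system had hosts called in both directions. Of 74 genes listed, 60 had reads and 27 were tested, 4 rose in muscle, 2 rose in fat and 21 were not called. With 10.5% and 3.75% of all hosts called, these numbers show nothing particular to the list. Scaling to circRNA reads gave 3 calls in each direction and moved the median log2 difference from 0.14 to -0.17. Besides UBE2D1 and UBE3A, the ligase UBR4 rose in muscle, with 20, 23 and 31 reads against 0, 6 and 0 (2.41 ± 0.50, limma, adjusted p = 7.45e-05). The ligase UBE3C had 63, 102 and 99 reads in muscle and 22, 64 and 21 in fat and was the one host called higher in muscle whose tissues overlapped (1.32 ± 0.48, adjusted p = 0.0456). This call was lost in 12 of 19 alternatives. UBE2D3, a close relative of UBE2D1, rose in fat with RNF111, with 3, 18 and 11 reads in muscle and 18, 44 and 26 in fat (-1.31 ± 0.47, adjusted p = 0.0428), and lost the call in 10 of 18 alternatives. Whether reads were shared between such related genes in the counting was not tested. The ligase TRIP12 overlapped (36, 58 and 56 against 25, 60 and 45). HERC6, named after its values were seen, lay higher in every fat library (10, 6 and 9 against 22, 20 and 25) and was not called (log2 difference -1.14, limma, adjusted p = 0.0967).

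On the fat side, the adipocyte list of 40 genes had few circRNA reads, with 16 genes detected and 3 tested. ACACA and PPARG rose in fat, EBF1 was not called, and the median log2 difference was -2.40, while 3.75% of all hosts were higher in fat. Both called hosts had passed the filter through fat libraries alone, so this count and median were set by the filter. Summed over the list, the level was 0.635 to 0.97 RPM in muscle and 1.87 to 3.04 RPM in fat. PPARG, the nuclear receptor that drives adipocyte differentiation, had 0, 0 and 3 reads in muscle and 17, 23 and 22 in fat (-2.40 ± 0.51, limma, adjusted p = 9.78e-05). Its ratio of fat to muscle was 21.2, with a counting interval from 6.92 to 105.6. EBF1, another factor of the adipocyte lineage, had 4, 6 and 0 reads in muscle and 11, 11 and 16 in fat (-1.34 ± 0.51, limma, adjusted p = 0.0582), and was called when libraries were centred (0.014) or scaled to circRNA reads (0.0177). LPIN1, a phosphatidate phosphatase that was not tested, had 12, 13 and 3 reads in muscle and 4, 2 and 2 in fat. Of the lipid storage genes, ADIPOQ, FASN and SCD gave no junction read under these symbols, PLIN1 gave 1 read in adipose 3 and FABP4 gave 3 there, so most defining adipocyte genes could not be compared by their circRNAs.

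On the log2(RPM + 0.1) scale, NTRK2, ADAMTS16 and GOSR1 came next, whereas edgeR and DESeq2 gave larger differences to hosts with no read in muscle. The neurotrophin receptor NTRK2 had 0, 9 and 1 reads in muscle and 25, 34 and 20 in fat (-2.31 ± 0.50, limma, adjusted p = 0.000121). The metalloprotease ADAMTS16 had 0, 5 and 1 reads in muscle and 18, 27 and 23 in fat (-2.30 ± 0.51, adjusted p = 0.000163). The Golgi SNARE GOSR1 had 0, 0 and 4 in muscle and 9, 24 and 26 in fat (-2.18 ± 0.51, adjusted p = 0.000462). In each of these hosts every fat library was above every muscle library in RPM. GOSR1 had passed the read filter through fat libraries alone, so its test is a description.

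The adhesion receptor ADGRL3 had 10, 18 and 5 reads in muscle and 33, 41 and 70 in fat (-1.88 ± 0.47, limma, adjusted p = 0.00113, and 0.054 without muscle 3). The actin-binding girdin CCDC88A had 0, 9 and 1 against 21, 13 and 20, EPB41L4A had 5, 9 and 4 against 36, 34 and 19, and the attractin relative ATRNL1 had 0, 4 and 0 against 9, 11 and 19, with log2 differences of -1.84, -1.79 and -1.79. The adjusted p-values of CCDC88A and ATRNL1 rose to 0.0667 and 0.0857 without muscle 3 and to 0.0648 and 0.0581 without muscle 1, and that of EPB41L4A rose to 0.0512 without its leading junction. ATRNL1 had passed the read filter through fat libraries alone, so its test is a description. Of the hosts higher in fat, 3 had no read in muscle, and could pass the filter through fat libraries only. Singled out for that reason, they were TENM4 (9, 10 and 5 reads in fat), SIPA1L2 (5, 10 and 6) and VAV3 (6, 5 and 5), at least 8.21-fold, 7.18-fold and 5.47-fold higher in fat. The calls of SIPA1L2 and VAV3 were lost without adipose 2 (adjusted p = 0.069 for both), and that of VAV3 also without muscle 2 (0.0551) or adipose 1 (0.0619). The VAV3 call was lost as well with no filter (0.119) and with limma without the trend (0.0604).

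**Figure D3:**
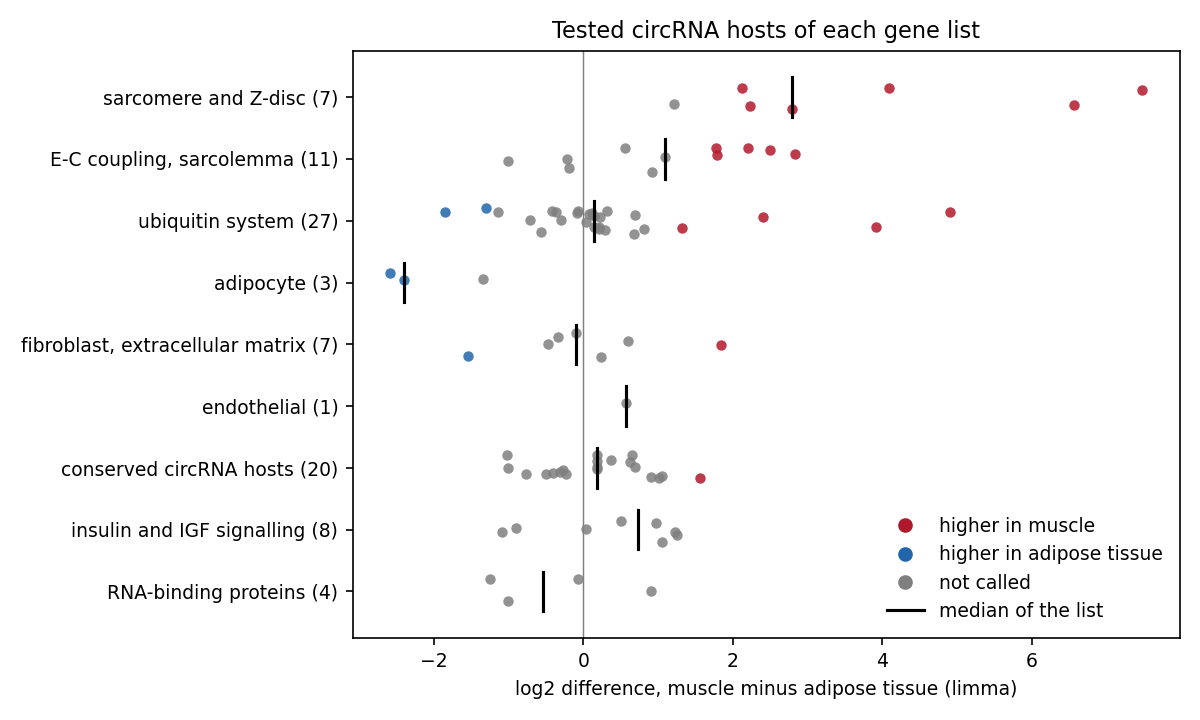
Each point is a tested host of a gene list, placed by its log2 difference (muscle minus fat, limma) and coloured by call, with the median of the list as a black line and the number tested in brackets. All 7 sarcomere hosts lie right of 0 and all 3 adipocyte hosts left of it, while ubiquitin hosts spread to both sides.

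Both tissues hold other cells, and their markers were looked at in the same way. Of 39 genes of fibroblasts and extracellular matrix, 32 had reads and 7 were tested. The laminin chain LAMA2 of the muscle basement membrane rose in muscle, with 20, 46 and 29 reads against 2, 7 and 9 (1.84 ± 0.48, limma, adjusted p = 0.00189), and LAMA4, the chain of vessels and fat cells, rose in fat, with 3, 13 and 6 against 25, 42 and 16 (-1.55 ± 0.48, adjusted p = 0.0119). The call of LAMA4 was lost without muscle 1 (adjusted p = 0.11), muscle 3 (0.0777) or adipose 2 (0.111), and with no filter (0.0857). The median of the list was -0.09, and its summed level was 5.08 to 7.45 RPM in muscle and 5.48 to 14.9 RPM in fat. BNC2 belongs to this list, and its 383 reads in adipose 2 made up a large part of the upper fat value. COL15A1, a collagen next to basement membranes, overlapped (8, 28 and 34 against 13, 30 and 3). Of the 18 endothelial genes, FLT1 alone was tested and was not called (9, 7 and 3 against 2, 6 and 1), and the summed level of the list was 0.28 to 0.609 RPM in muscle and 0.361 to 0.726 RPM in fat. None of the 18 immune genes reached the filter, with 11 detected and summed levels of 0.0265 to 0.544 RPM in muscle and 0.271 to 0.412 RPM in fat. Of these, MRC1 had 0, 4 and 6 reads in muscle and 3, 0 and 2 in fat, CIITA had 1, 7 and 2 against 1, 1 and 0, and F13A1 had 0, 1 and 0 against 1, 2 and 8. The macrophage receptor VSIG4, not in that list and named after its values were seen, had 1, 16 and 2 reads in muscle and 23, 16 and 21 in fat (-1.57 ± 0.49, adjusted p = 0.0136, with the call lost in 6 of 18 alternatives). The part of these cells in the differences above was not tested.

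Hosts known for abundant circRNAs in many species and tissues were looked at as a list of 34 genes, of which 27 had reads and 20 were tested. In this list 19 hosts were not called, 1 rose in muscle and none in fat, where 85.8% of all hosts were not called, so the count shows nothing particular to it. Scaling to circRNA reads gave 1 call in each direction and moved the median log2 difference from 0.18 to -0.13. The call was TULP4 (10, 12 and 12 reads against 0, 5 and 0, limma, adjusted p = 0.0136), lost without muscle 3 (0.0657), adipose 1 (0.114) or adipose 3 (0.131). HIPK3, a kinase that is the host of a widely studied circRNA, had 59, 140 and 125 reads in muscle and 72, 166 and 159 in fat (-0.32 ± 0.53, adjusted p = 0.804). PICALM (47, 115 and 69 against 22, 98 and 68), CSNK1G3 (22, 52 and 37 against 23, 73 and 59) and NFATC3 (21, 40 and 25 against 18, 37 and 19) overlapped as well.

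Besides BNC2 and HIPK3, the highest hosts of fat were MED17, MAPK8 and ARHGAP10 by mean RPM. The Mediator subunit MED17 had 37, 135 and 77 reads in muscle and 118, 254 and 189 in fat, all fat values above those of muscle in RPM, with an adjusted p of 0.0966 (limma, -1.28 ± 0.53). Centring on the library median and scaling to circRNA reads brought this to 0.00455 and 0.00174, and MED17 was also called by edgeR with TMM factors (0.013) and DESeq2 (0.00131). Its 4 leading junctions, with 13.5 to 35.3% of its reads each, all share the end at position 1015558 of chromosome 29. The kinase MAPK8 (log2 difference -0.39) and the GTPase activator ARHGAP10 (0.04) overlapped between tissues.

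Insulin and IGF signalling and the RNA-binding proteins that act in splicing gave no call with the values as deposited, which for lists this short is near the 10.5% and 3.75% of all hosts called. Of 8 insulin hosts tested among 27 listed, 0 were called by limma, although 4 had an unadjusted p below 0.05, as had 23.2% of all hosts, and 2 were called higher in muscle and 1 higher in fat by edgeR with TMM factors, by DESeq2 and after centring on the library median. Scaling to circRNA reads called none in muscle and 1 in fat. The insulin receptor INSR had 59, 66 and 81 reads in muscle and 33, 27 and 19 in fat, without overlap (1.25 ± 0.48, limma, adjusted p = 0.0582), of which 97.9% crossed the one 552 bp junction chr7:17401915-17402466. The kinase PDPK1 had 49, 24 and 22 against 12, 14 and 6 (1.23, adjusted p = 0.0597), and RICTOR overlapped. Of 4 RNA-binding hosts tested among 25 listed, 0 were called by limma, edgeR or DESeq2, and 2 had an unadjusted p below 0.05, against 23.2% of all hosts. Centring and scaling to circRNA reads each called 1 of them higher in fat. PTBP3 (1, 3 and 6 reads against 17, 9 and 12) lay higher in fat in every library, while QKI (24, 35 and 46 against 13, 39 and 7), MBNL1 and MBNL2 overlapped.

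How far a host difference rested on one circle was read from the junctions. The leading junction held a median of 50.8% of the reads of a tested host, 67.2% among hosts higher in muscle and 52% among hosts higher in fat. It held over 90% in 30 of the 98 hosts higher in muscle, in 6 of the 35 higher in fat and in 92 of the 801 that were not called. The median number of junctions was 5.5 in hosts higher in muscle, 7 in hosts higher in fat and 8 in hosts not called. The median reads were 79.5, 69 and 48, so called hosts of both directions had more reads. With the leading junction left out, 420 hosts still passed the filter, among them 45 of the 98 and 17 of the 35. Of these, 44 and 17 kept their direction, and 25 and 12 were called again. Hosts whose remaining reads passed the filter through a single tissue had their direction largely set by it, so these counts are a description. MYBPC1 kept a log2 difference of 6.03. NEB fell from 7.48 to 3.82 and was called again. The only NEB read in fat lay on the leading junction, so the remaining reads were all in muscle. The lower NEB value therefore depends on the 0.1 RPM added. UBE3A fell to 0.34 (limma, adjusted p = 0.764) and SCAF8 to -0.04 (adjusted p = 0.984). Junctions with at least 5 reads in 3 libraries went the way of their called host in 97 of 99 cases for muscle and in 25 of 25 for fat, the exceptions being one junction each of SCAF8 and DLG1. Since these junctions are part of the host sum, this is largely fixed beforehand. Of the called hosts with at least 2 such junctions, all went one way in 13 of 15 for muscle and in 4 of 4 for fat.

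**Figure D4:**
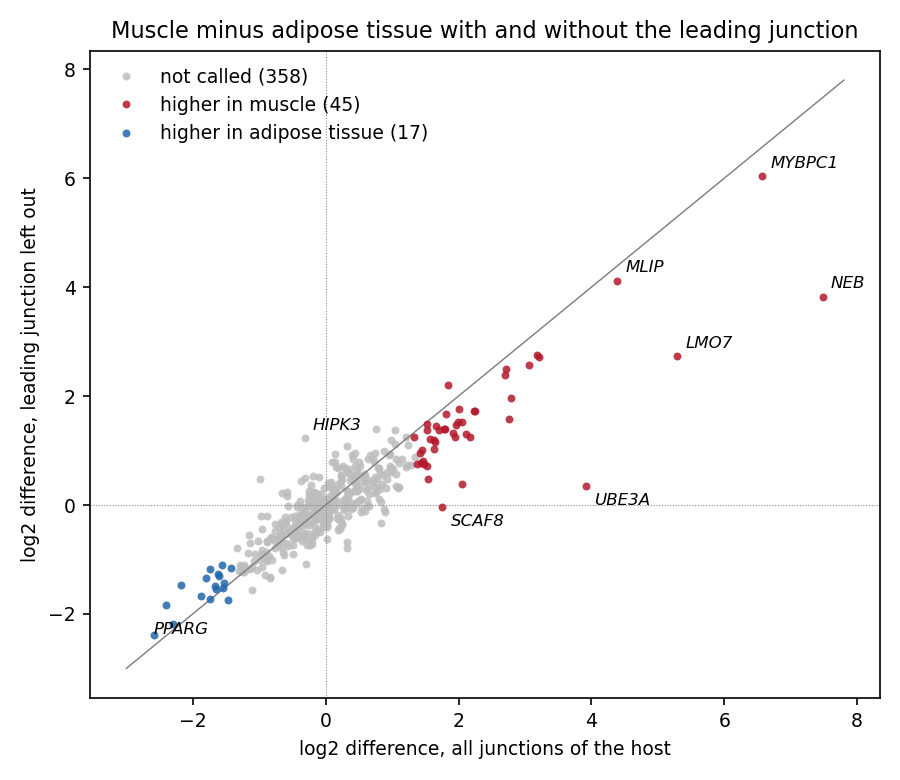
Each point is 1 of the 420 hosts that passed the read filter without their leading junction, with the log2 difference (muscle minus fat) from all junctions on the horizontal axis, that without the leading junction on the vertical axis, and the diagonal marking equal values. MYBPC1 and MLIP lie near the diagonal, while NEB, LMO7, UBE3A and SCAF8 drop below it. The reads left to NEB were all in muscle.

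Single junctions were then set against the rest of their host, as the log2 ratio of junction reads to the other reads of the host, which does not depend on the scaling of the library. The 227 junctions tested, of 139 hosts, had at least 5 reads in 3 libraries and a host with at least 5 reads in every library. With limma, 6 (2.64%) were above their host in muscle and 2 (0.881%) were above it in fat, and 36 had an unadjusted p below 0.05. Junctions of one host are not independent, since a higher share of one lowers the shares of the others. Some junctions passed the read filter through a single tissue, where they were high, so their tests are a description. The counts above include such junctions.

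SCAF8, a protein that binds the tail of RNA polymerase II, had different leading junctions in muscle and in fat. The exonic junction chr9:92829887-92841901 had 30, 38 and 49 reads in muscle and 0, 0 and 3 in fat, which was 79 ± 6.83% of the host in muscle and 7.69 ± 13.3% in fat (SD, n = 3). The junction chr9:92870744-92873608 had 5, 4 and 8 reads in muscle and 7, 12 and 8 in fat, or 11.5 ± 2.99% and 78.3 ± 14.5%. Neither share overlapped between tissues, and the log2 ratios differed by 5.41 ± 1.29 (limma, adjusted p = 0.0067) and -4.63 ± 1.17 (adjusted p = 0.00939). The first junction had passed the read filter through muscle libraries alone, so its test is a description. The second test is largely the mirror of the first. The host itself was higher in muscle (1.76, adjusted p = 0.00256), a call lost without muscle 3 (0.0595) or without its leading junction (0.984).

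DOCK1, a guanine nucleotide exchange factor for Rac, was not called as a host (log2 difference 0.90, limma, adjusted p = 0.229), yet its leading junction had reads in muscle libraries alone. The exonic chr26:46813634-46822655 had 16, 16 and 20 reads in muscle and none among 88 host reads in fat, which allows a share of up to 3.41% there. Its log2 ratio differed by 4.74 ± 1.26 (adjusted p = 0.0134). This junction had passed the read filter through muscle libraries alone, so its test is a description. The next junction, chr26:46792157-46805693, had 6, 15 and 9 reads in muscle and 3, 4 and 9 in fat.

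HIPK3, not called as a host, had a pair of junctions that shifted against each other. The leading circle of 1099 bp, chr15:64704077-64705175, had 42, 123 and 96 reads in muscle and 63, 153 and 158 in fat, or 78.6 ± 8.48% and 93 ± 5.98% of the host. These shares overlapped, and the log2 ratio differed by -2.39 ± 0.66 (limma, adjusted p = 0.0145). The junction chr15:64742620-64745544 had 14, 14 and 17 reads in muscle and 5, 5 and 0 in fat (3.13 ± 0.89, adjusted p = 0.0179).

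The zinc finger gene ZNF280D, also not called as a host, had 28, 35 and 38 reads of chr10:53739709-53743171 in muscle and 3, 14 and 5 in fat, or 72.3 ± 5.91% and 28.5 ± 18.7% of the host (2.75 ± 0.75, limma, adjusted p = 0.0137). FOXJ3, a forkhead factor, was higher in muscle as a host (1.53, limma, adjusted p = 0.0116). This call was lost without muscle 3 (0.111), with no filter (0.0761) and without its leading junction (log2 difference 0.71, adjusted p = 0.423). That junction, chr3:104523997-104536697, rose beyond its host, with 34, 32 and 56 reads in muscle and 10, 4 and 3 in fat (1.99 ± 0.63, adjusted p = 0.0472, with the call lost in 10 of 12 alternatives). The leading junction of UBE3A also rose beyond its host, at 98.8 ± 0.456% of the reads in muscle and 87.8 ± 2.97% in fat (3.65 ± 1.05, adjusted p = 0.0179). The other junctions of UBE3A held 8, 4 and 5 reads in muscle and 2, 6 and 3 in fat.

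**Figure D5:**
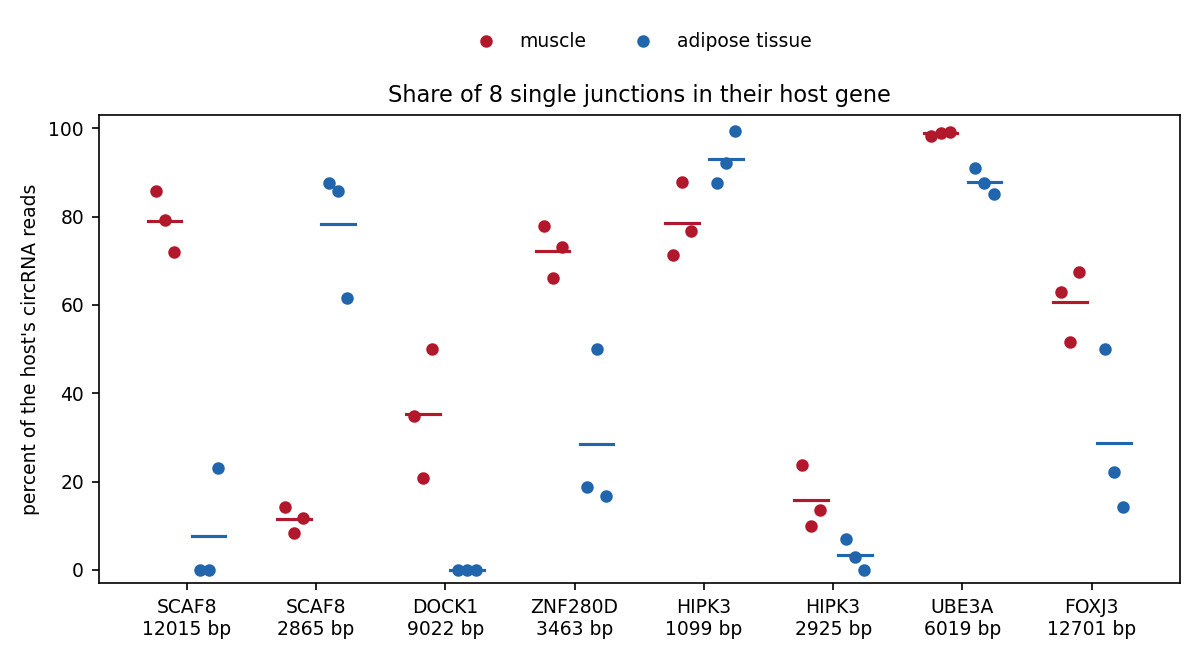
Points are single libraries and give the share of one junction, named by its host and genomic span, in all circRNA reads of that host, with short lines as means over the 3 muscle or 3 fat libraries. The 2 SCAF8 junctions trade places between tissues, and the DOCK1 junction is at 0 in all 3 fat libraries.

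These junction calls were fragile, and their errors were wholly pooled over all junctions tested. None of the 8 was called without muscle 1 or without muscle 3, where limma called 0 junctions and 29 had an unadjusted p below 0.05 in either case, and 3 remained without adipose 3. With edgeR's diffSpliceDGE on the recovered reads, 5 junctions were called, of which 4 were shared, namely both of SCAF8, that of DOCK1 and that of HIPK3 at chr15:64742620-64745544.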

How the data were processed

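The authors trimmed reads with Trim Galore and mapped them with STAR, using UMD3.1 as the cattle reference. The circRNA caller is not given in the sources used here. The deposited circRNA table gives RPM per back-splice junction, with replicates kept apart. In each column every value was a whole multiple of the smallest value above 0 (100% of values, tolerance 0.01), and these reads were summed by gene symbol. Rows without a symbol held 5.19 to 6.05% of the reads of a library and were left out.

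Hosts were compared with limma 3.58.1 (R 4.3.3) on log2(RPM + 0.1), and junctions with limma on log2 ratios with 0.5 reads added. The threshold was an adjusted p of 0.05. edgeR 4.0.16 and DESeq2 1.42.0 on recovered reads were alternatives. The procedures were tested on simulated data, but the outcome is not reported here and no result above rests on it. No label states separate days, so p-values cover only the spread among these libraries. In limma that spread was pooled, almost wholly over all hosts and wholly over all junctions tested.

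Named hosts were the 5 given for the comparison (NEB, UBE2D1, UBE3A, BNC2, RNF111), the 5 highest per tissue, the 10 called hosts per direction with the largest difference and no overlap, and up to 4 of each list by level. Other hosts, where named, were chosen after their values were seen. Members and lists were chosen with earlier results of these data known. A host withheld from this text is not reported here.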

Additional observations from a re-analysis of the deposited data

Results flagged for a closer look

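Signal was found outside the comparison by symbol. The gene ENSBTAG00000026986, which the table leaves without a symbol, had 90 junctions with 270 reads over the muscle libraries (55, 113 and 102) and none in fat. Of all 1205 junctions without a symbol, the one with the most reads was the intergenic chr15:76980811-76994777, with 464 reads over the 6 libraries, namely 63, 116 and 77 in muscle and 51, 101 and 56 in fat. Neither was tested.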

How the results depend on the processing

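Counts of hosts higher in muscle were 67 to 118 when single libraries were left out (67 without muscle 3, 118 without adipose 2), and those higher in fat were 15 to 30. No alternative called a host in the opposite direction. With all 4757 hosts tested without a filter, 19 were higher in fat, and scaling to circRNA reads and centring on the median gave 91 and 62. Without leading junctions 27 and 14 of 420 hosts were called, fewer hosts being tested. edgeR with TMM factors gave 104 and 37, DESeq2 100 and 36. Junctions above their host were 0 to 8 in muscle and 0 to 4 in fat when single libraries were left out. With limma, asking 10 junction reads left 0 and 0 of 96 junctions (16 with an unadjusted p below 0.05), dropping the trend left 3 and 1, and asking 5 host reads in 3 libraries only gave 7 in fat, while diffSpliceDGE called 3 in muscle. The cause was not tested. No label says whether same-numbered libraries share an animal, and their deviations correlated at 0.0241 to 0.0743. With the replicate number as a block, 109 and 44 hosts and 7 and 3 junctions were called. Each library correlated best with its own number, but these correlations were weak. The deviations are taken from tissue means, so the values are not independent, and nothing is concluded about pairing.

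Among named hosts, reversed log2 differences were not called, apart from SCAF8 with all its junctions. Scaling to circRNA reads turned ARHGAP10 (-0.3695), TRIP12 (-0.1743), PICALM (-0.009988) and NFATC3 (-0.1815), and centring turned ARHGAP10 (-0.05515). MBNL1 turned with edgeR on library totals (0.006198) and without single-read junctions (0.1698). Leaving out the leading junction turned HIPK3 (1.231), ARHGAP10 (-0.2591), TRIP12 (-0.4249), COL15A1 (-0.1107), NFATC3 (-0.234), QKI (-0.1319), SCAF8 (-0.04273) and ZNF280D (-0.3308). Leaving out single libraries gave ranges of -0.676 to 0.2736 for BNC2, -0.6788 to 0.04381 for HIPK3, -0.2406 to 0.5538 for ARHGAP10, -0.4316 to 0.03272 for UTRN, -0.5882 to 0.2867 for PHKB, -0.09757 to 0.4712 for TRIP12, -0.02442 to 1.153 for COL15A1, -0.1881 to 0.7978 for PICALM and -0.5468 to 0.3237 for MBNL1. Of the values with a test that were recomputed, 1388 kept their direction and side of the threshold, 101 lost a call, 31 gained one and 29 reversed. Dropping names of nested small RNAs, asking 30 reads over the 6 libraries and a robust prior, chosen after seeing the data, gave 94 to 98 and 31 to 34 hosts. The median host had 50 reads over 6 libraries.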

Other observations

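Among the other junctions without a symbol, the intergenic chr21:45011150-45011619 had 16, 41 and 46 reads in muscle and none in fat. The exonic chr14:28853690-28856128 of ENSBTAG00000026283 had 1 read in each muscle library and 16, 25 and 28 reads in adipose 1 to 3.

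Junctions that the table classes as reaching from exon into intron took 11.9 to 13.6% of the reads of the muscle libraries and 8.04 to 9.19% of those of the fat libraries. The leading junctions of NEB and UBE3A are of this class, and without them the shares were 7.36 to 7.49% in muscle and 7.89 to 9.08% in fat. Since both were chosen for their many muscle reads, their removal had to lower the muscle share more than the fat share. The second shares are therefore a description, and nothing is concluded from them.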
